A study of Caenorhabditis elegans with 16 samples.

Results

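In the Caenorhabditis elegans strain MLC2393, miR-54 is the only remaining member of the miR-51 family. Its small RNAs were compared here with those of the wild-type strain N2, over all miRNA strands that were counted. The strains were chosen by the genotype label, which gave 2 libraries of MLC2393 and 2 of N2, 4 of the 16 libraries of 8 strains. MLC2393 carries n4100 and nDf67 on chromosome IV, which remove miR-51, miR-52 and miR-53, and luc180 on chromosome X, a deletion of the mir-55 and mir-56 hairpins made with CRISPR that leaves mir-54. The study describes it as slow to grow. N2 has all 6 members. 2 further strains of the same deletion series were used for comparison: MLC2394 carries n4100, nDf67 and luc177, a deletion of mir-56, and so keeps miR-54 and miR-55, and MLC2290 carries n4100 and nDf67 alone and keeps miR-54, miR-55 and miR-56. The remaining strains, which entered the fit and the ranks, are mutant for the family too. MLC1800 (n4100, nDf67, nDf58) lacks the family on its chromosomes and carries an array, lucEx1057, with the mir-54 cluster. MLC1997, MLC1918 and MLC1917 carry nDf67 and nDf58. In place of the mir-52 hairpin they have, in that order, that of mir-51, of mir-57 with a changed seed, and of mir-53. All strains were grown at 20 °C. Each library was made from the total RNA of 50 whole, untreated embryos at the comma stage, in which the embryo begins to elongate. By the labels the embryos were picked at the 2-cell stage and left to develop, whereas the study's small RNA methods give only a collection at the comma stage. The study calls the 2 libraries of a strain independent duplicates, without saying whether they came from separate cultures. The p-values of single strands rest on the spread between the libraries of a strain, pooled over all 8 strains. They do not rest on that of MLC2393 and N2 alone, and part of the spread may be technical. The 3′ adapter of each strain had a barcode of its own, and the effect of the barcode and that of the genotype cannot be told apart.

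A miRNA gene is transcribed into a hairpin, from which a short duplex is cut. One strand of the duplex, the guide, is kept by an Argonaute protein and pairs with messenger RNAs through its seed, and the other, the passenger strand, is mostly degraded. Members of a family share the seed and can repress the same messenger RNAs. The miR-51 family is related to miR-100 of vertebrates and is broadly expressed. It is required for embryos to elongate fully and for the animals to survive, as those without it die before or shortly after hatching. The guides are the 5p strands of miR-51, miR-52 and miR-53 and the 3p strands of miR-54, miR-55 and miR-56.

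By the Ensembl 115 annotation of the WBcel235 build, mir-54 (WBGene00003282) lies on chromosome X from 13144996 to 13145094 (minus strand). Its guide, miR-54-3p, lies from 13145011 to 13145034, and miR-54-5p from 13145055 to 13145076. mir-55 (13144827 to 13144924) and mir-56 (13144691 to 13144787) follow at gaps of 71 and 39 bases, and the 3 hairpins span 404 bases in an intron of the gene F09A5.3, which runs on the opposite strand. The deleted mir-51 (11026013 to 11026112) and mir-53 (11027593 to 11027691) lie on the minus strand of chromosome IV, and mir-52 (14034008 to 14034107) on its plus strand.

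Counts were of unique molecular identifiers (UMIs), random nucleotides of the adapter that mark a molecule before amplification. The MLC2393 libraries held 198750 and 138120 UMIs on miRNAs and the N2 libraries 844718 and 229603. These fell on 277 and 248 strands in MLC2393 and on 324 and 254 in N2, and the other 12 libraries held between 18481 and 186938 UMIs. A level is given below in CPM, the UMIs of a strand per 1000000 UMIs of the library's total outside the miR-51 family after normalisation. Levels are therefore relative to the other miRNAs, and the amount per embryo or per RNA was not analysed here. 150 strands outside the family passed the filter of at least 10 UMIs in at least 2 of the 16 libraries. A strand is said to be called, to rise or to fall only at an adjusted p under 0.05 in the quasi-likelihood test of edgeR. The adjustment, by Benjamini-Hochberg, was over these and the 12 family strands. Most of the 12 come from hairpins deleted in MLC2393. Their fall over N2 was set by genotype, and this eases the threshold for the 150. Calls with adjustment over the 150 alone were not computed.

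Replicate 1 of MLC2393 stood apart from replicate 2. Of the 150 strands, 28 were over 2-fold higher and 11 over 2-fold lower in replicate 1 than in replicate 2 of MLC2393, against 7 and 2 for the libraries of N2. In replicate 1, 18 strands were the highest and 11 the lowest of all 16 libraries, and in replicate 2, 1 and 1. Libraries of other strains were as extreme, with 20 and 25 in replicate 1 of MLC1917 and 21 and 9 in replicate 2 of MLC1800, against 13 and 0, and 4 and 2, in N2. Replicate 1 of MLC1917 is the shallowest of the 16 libraries, with 18481 UMIs, where counting error weighs most. The better counted strands differed less: among the 61 strands with at least 50 UMIs in each of the 4 libraries, 5 differed over 2-fold between the MLC2393 libraries, against 0 in N2 and up to 8 in the other strains. Replicate 1 had 1.09 reads per UMI and replicate 2 had 1.59, against 1.27 and 1.10 in N2. Every library is therefore shown on its own, and the results that rest on replicate 1 are given without it as well. A fit that leaves out a library of a strain holds only 1 library of that strain. Its p-values take their spread from the other strains and do not measure that of the strain itself.

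The stage of the embryos was looked at through miRNAs with known timing. The miR-35 family, a group of 8 maternal and early embryonic miRNAs that embryos need to live, was the most abundant of the families looked at in both strains. Its 8 guides summed to 408928 and 478051 CPM in MLC2393, against 559050 and 566573 in N2. The 5 strands that time larval development, lin-4, miR-241, miR-84, miR-48 and let-7, are scarce before hatching. They summed to 4437 and 886 in MLC2393, against 872 and 726 in N2. Ranked from the highest, replicate 1 of MLC2393 stood at position 1 of 16 libraries for the timing strands and at position 14 for the miR-35 family, and replicate 2 at positions 9 and 12. The other 12 libraries lay between 212 and 4415 for the timing strands and between 332944 and 610592 for the miR-35 family. The 3 libraries with the most timing strands, replicate 1 of MLC2393, replicate 1 of MLC1917 and replicate 2 of MLC1997, also held the 3 lowest sums of the miR-35 family, 408928, 332944 and 373158. The part that embryo age had in the results below was not tested.

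miR-54 remained and the other 5 members were lost. miR-54-3p had a level of 60262 and 52321 CPM in MLC2393, against 33538 and 37633 CPM in N2. Both MLC2393 libraries lay above both N2 libraries, and above those of MLC2394 and MLC2290. The remaining strains lack the chromosomal mir-54 cluster, so their lower levels were set by genotype. The mean was 1.58 ± 0.204 times that of N2 (SD propagated from 2 libraries each), a log2 fold change of 0.66 with a standard error of 0.22, and it missed the threshold (adjusted p = 0.0639). This call turned on the processing: the adjusted p was 0.031 with median-of-ratios size factors, 0.0357 in DESeq2 and 0.0202 with plain totals of the miRNAs outside the family as library sizes, and 0.417 without replicate 1 of MLC2393. Its passenger strand miR-54-5p had 3158 and 2976 in MLC2393, against 2449 and 2444 in N2, a log2 fold change of 0.33 (standard error 0.25, adjusted p = 0.439). In whole embryos, a change in the number of cells that express a miRNA and a change in its level per cell cannot be told apart.

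The guide strands of the deleted hairpins, which check the labels, fell to less than 1% of wild type. miR-52-5p, the most abundant member in wild type, had 1120 and 1143 in MLC2393, against 193161 and 258538 in N2. miR-51-5p had 247 and 341 in MLC2393, against 74597 and 86605 in N2, and miR-53-5p, the scarcest guide, had 74.0 and 45.4, against 9503 and 9719. From the miR-54 cluster itself, miR-55-3p had 242 and 227 in MLC2393, against 43167 and 49943 in N2, and miR-56-3p had 212 and 250, against 45579 and 51234. For no deleted guide did the groups come near each other.

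Relative to N2, what was left amounted to 0.364% ± 0.0909 for miR-51-5p, 0.501% ± 0.103 for miR-52-5p, 0.621% ± 0.211 for miR-53-5p, 0.504% ± 0.0564 for miR-55-3p and 0.477% ± 0.0677 for miR-56-3p (SD, n = 2). The log2 fold changes lay between -8.11 and -7.26, with adjusted p-values between 3.19e-11 and 5.31e-10 in edgeR's test. Other strains without the hairpin held a similar remainder, which was 0.233% to 0.658% of the wild-type level for miR-52-5p in 12 libraries of 6 strains. For miR-55-3p it was 0.246% to 0.997% in 6 libraries of 3 strains. These 3 leave out MLC1800, which has lost the chromosomal mir-54 cluster but carries an array, lucEx1057, with a fosmid that holds the cluster, and in which miR-55-3p had 5379 and 3234 CPM. The passenger strands were lost as well. miR-51-3p and miR-53-3p had 0 UMIs in both MLC2393 libraries, against 903 and 67 UMIs in N2 in all, and were at least 142-fold and at least 10.6-fold lower when 3 UMIs over both libraries are taken as the floor. miR-52-3p had 3 UMIs in MLC2393, against 7374 UMIs in N2, which is 0.0860% (exact 95% interval 0.0177% to 0.251%, for counting error only). miR-55-5p and miR-56-5p had 2 UMIs each in MLC2393, against 794 and 1150 in N2.

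**Figure D1:**
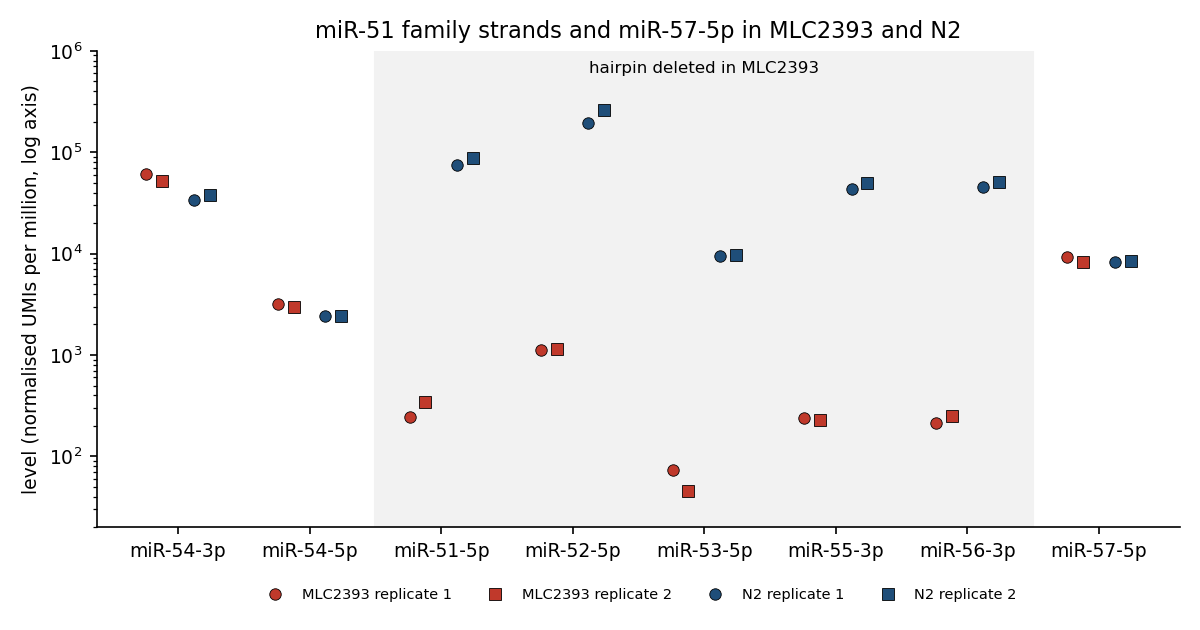
Levels of both miR-54 strands, of the guide strands of the 5 deleted members (grey field) and of miR-57-5p, in CPM (normalised UMIs) on a log axis, for the 2 MLC2393 libraries (red) and the 2 N2 libraries (blue), 1 point a library. miR-54-3p lay at 60262 and 52321 in MLC2393, against 33538 and 37633 in N2, and the deleted guides lay below 1% of wild type.

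miR-57, which is related to the family by sequence but has another seed, is not deleted. miR-57-5p had 9307 and 8170 in MLC2393, against 8227 and 8365 in N2. The groups overlapped, and the log2 fold change of 0.08 (standard error 0.23, adjusted p = 0.881) was within the spread between replicates. The scarcer miR-57-3p had 262 and 174 in MLC2393, against 264 and 321 in N2, with a log2 fold change of -0.40 (adjusted p = 0.512).

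The family as a whole was small in MLC2393. All family strands together took 6.66% and 5.48% of the miRNA UMIs in MLC2393, against 27.8% and 31.8% in N2 (exact 95% intervals from 6.55% to 6.77% and from 5.36% to 5.6% in MLC2393, against 27.7% to 27.9% and 31.6% to 32.0% in N2). The mean share was 20.4% of that of N2, and both MLC2393 libraries were lower than both N2 libraries. The two-sided exact permutation test gave p = 0.33, and with 2 libraries in each strain no smaller p is possible. The 6 guides summed to a level of 62157 and 54327 in MLC2393, against 399544 and 493673 in N2, which is 0.13 ± 0.0231 of wild type (SD propagated). miR-54-3p made up 97.0% and 96.3% of that sum in MLC2393, against 8.39% and 7.62% in N2. Of the UMIs on mir-54, the passenger strand took 4.98% and 5.38% in MLC2393, against 6.80% and 6.10% in N2, 0.803 ± 0.0762 of wild type (exact permutation test, p = 0.33, again the smallest possible).

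The 2 strains between MLC2393 and wild type show how the level of miR-54 moved along the deletion series. miR-54-3p averaged 56291 ± 5615 in MLC2393, 31125 ± 4112 in MLC2394, 46569 ± 6829 in MLC2290 and 35586 ± 2896 in N2 (SD, n = 2 each). The order of the means was thus MLC2393, MLC2290, N2 and MLC2394, and the libraries of the 2 lowest overlapped, at 34033 and 28218 in MLC2394, against 33538 and 37633 in N2. The lower MLC2393 library, at 52321, and the higher MLC2290 library, at 51398, nearly met. Compared with MLC2394, which keeps miR-55 as well, miR-54-3p in MLC2393 was 1.81 ± 0.299 times as high (log2 fold change 0.85, standard error 0.22, adjusted p = 0.072). Compared with MLC2290, it was 1.21 ± 0.214 times as high (log2 fold change 0.27, standard error 0.22, adjusted p = 0.769). For both strains, the MLC2393 libraries were higher in 4 of 4 pairs, with an exact permutation p of 0.33. The family guides summed to 0.719 ± 0.0902 of MLC2394 and to 0.373 ± 0.0378 of MLC2290, lower in 4 of 4 pairs each. The comparisons share the MLC2393 libraries and are not independent.

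**Figure D2:**
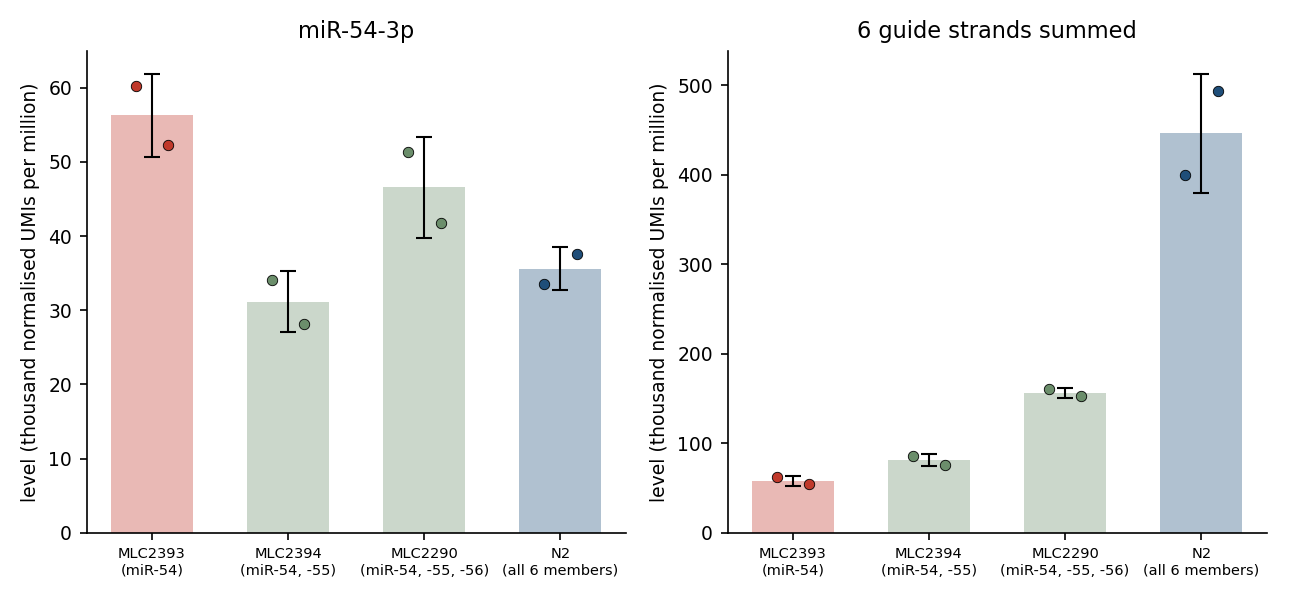
Level of miR-54-3p (left) and of the 6 family guides summed (right), in units of 1000 CPM, in MLC2393, MLC2394, MLC2290 and N2, with the members each strain keeps. Bars are means, error bars the SD of 2 libraries, points single libraries. miR-54-3p averaged 56291 in MLC2393 and 35586 in N2, while the family sum was lowest in MLC2393 of these 4 strains.

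Outside the family, 9 of 150 strands differed between MLC2393 and N2 by the test, adjusted together with the deleted strands. The smallest p-value was that of miR-70-3p, the only 1 of the 9 that kept its call when the 2 strains were fitted alone. 6 strands rose, 4.0% of those tested: miR-70-3p, miR-85-3p, lin-4-5p, miR-235-3p, miR-230-3p and miR-78-3p. 3 strands fell, 2.00% of those tested: miR-62-5p, miR-44-5p and miR-250-3p. 21 strands had an unadjusted p under 0.05, and DESeq2 called 5 higher and 4 lower. Relative to the normalised totals, 90 of the 150 lay within 1.5-fold of N2. The median log2 fold change of the 150 strands was -0.004, which the normalisation on these same strands sets near 0, and it was 0.18 with plain totals as library sizes and -0.12 with reads in place of UMIs. Both MLC2393 libraries lay above both N2 libraries for 33 strands (22.0%) and below both for 48 (32.0%). Leaving out replicate 1 of MLC2393 left 2 strands called higher and 1 called lower, leaving out replicate 2 gave 11 and 2, leaving out replicate 1 of N2 gave 1 and 0, and leaving out replicate 2 of N2 gave 1 and 2. Of the 9 called strands, miR-62-5p, miR-70-3p and miR-78-3p kept their call without replicate 1 of MLC2393, and lin-4-5p, miR-70-3p, miR-85-3p, miR-230-3p and miR-235-3p kept it without replicate 2. Only miR-70-3p kept it without replicate 1 of N2, and miR-62-5p, miR-70-3p and miR-250-3p kept it without replicate 2 of N2. miR-70-3p was thus called in all 4 of these fits.

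miR-70-3p was the strand with the smallest p-value outside the family. It comes from mir-70 (WBGene00003298, chromosome V, 6665536 to 6665635, minus strand), in an intron of pmp-5 on the same strand. Its level was 2043 and 727 in MLC2393, against 103 and 97.7 in N2. Both MLC2393 libraries were far above both N2 libraries, though replicate 1 held 2.81 times as much as replicate 2. The log2 fold change was 3.77 (standard error 0.60, adjusted p = 0.000218), and 2.85 without replicate 1 (adjusted p = 0.00161). The other 12 libraries lay between 144 and 1148, all above both N2 libraries, so that N2 was the lowest strain for this miRNA. miR-78-3p, from mir-78 (WBGene00003306, chromosome IV, 15165647 to 15165742, plus strand), was also higher in all other 12 libraries. It had 133 and 273 in MLC2393, against 65.6 and 34.9 in N2. The log2 fold change was 1.86 (standard error 0.54, adjusted p = 0.0332) and 2.29 without replicate 1 (adjusted p = 0.0164), whereas the adjusted p was 0.184 without replicate 2 of MLC2393, 0.122 without replicate 1 of N2 and 0.253 without replicate 2 of N2. It rests on 27 and 36 UMIs in MLC2393, against 37 and 5 in N2.

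The other 4 that rose lost their call without replicate 1. miR-85-3p, from mir-85 (WBGene00003313, chromosome II, 8393553 to 8393658, plus strand), had 883 and 45.4 in MLC2393, against 40.8 and 34.9 in N2. Replicate 1 was 19.4 times replicate 2, which was close to wild type. Of the 12 other libraries, 7 lay above both N2 libraries. The log2 fold change of 3.58 (standard error 0.995, adjusted p = 0.0314) was 0.22 without replicate 1 (adjusted p = 0.99). miR-230-3p, from mir-230 (WBGene00003323, chromosome X, 5803892 to 5803989, plus strand), had 26 and 1 UMIs in MLC2393, against 1 and 1 in N2. Over both libraries this is a ratio of 28.5 (exact 95% interval 7.17 to 248, for counting error only), and the adjusted p of 0.0332 became 0.99 without replicate 1. Its single UMI in replicate 2 shows no difference at this depth. For miR-230-3p too, 7 of the 12 other libraries lay above both N2 libraries, though on few UMIs.

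lin-4-5p is the guide of lin-4, the founding miRNA, which times the first larval stages by repressing lin-14. Its hairpin (WBGene00002993) lies on chromosome II from 5902254 to 5902347, in an intron of F59G1.4. It had 632 and 220 in MLC2393, against 110 and 41.9 in N2. Both MLC2393 libraries were above both N2 libraries, and the 12 other libraries ranged from 0 to 736, 8 of them above both N2 libraries. The log2 fold change was 2.36 (standard error 0.68, adjusted p = 0.0332), and 1.38 without replicate 1 (adjusted p = 0.47). miR-235-3p, whose miRNA keeps blast cells quiescent in starved larvae, comes from mir-235 (WBGene00003328, chromosome I, 6162291 to 6162387, minus strand). It lay above both N2 libraries in 9 of the 12 other libraries, and had 498 and 174 in MLC2393, against 93.9 and 62.8 in N2. Again replicate 1 was the higher, and the log2 fold change of 2.05 (standard error 0.57, adjusted p = 0.0314) was 1.08 without it (adjusted p = 0.547).

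The 3 strands that fell differed less than 2-fold between the MLC2393 libraries. miR-62-5p is the scarcer strand of mir-62 (WBGene00003290, chromosome X, 12692608 to 12692665, plus strand), in an intron of ugt-50. It had 276 and 151 in MLC2393, against 932 and 573 in N2, a log2 fold change of -1.80 (standard error 0.46, adjusted p = 0.0199) that was -2.31 without replicate 1 of MLC2393 (adjusted p = 0.0198). All 12 other libraries were below both N2 libraries too, between 71.9 and 513. Its partner miR-62-3p, the guide, had 6470 and 12236 in MLC2393, against 8989 and 8476 in N2, which overlap (adjusted p = 0.891). miR-44-5p, the scarcer strand of mir-44 (WBGene00003272, chromosome II, 11890023 to 11890118, plus strand), had 321 and 310 in MLC2393, against 656 and 775 in N2. Here the MLC2393 libraries nearly coincided, and all 12 others were below both N2 libraries, between 170 and 645. The log2 fold change was -1.17 (standard error 0.33, adjusted p = 0.0322), and the adjusted p was 0.19 without replicate 1 and 0.0882 without replicate 2 of MLC2393. miR-250-3p, which shares its seed with miR-2, comes from mir-250 (WBGene00003344, chromosome V, 11769917 to 11770015, minus strand). It had 262 and 189 in MLC2393, against 666 and 412 in N2, with a log2 fold change of -1.26 (standard error 0.38, adjusted p = 0.0421). Of the 12 other libraries, 9 lay below both N2 libraries. Without replicate 1 of MLC2393 the adjusted p was 0.103.

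**Figure D3:**
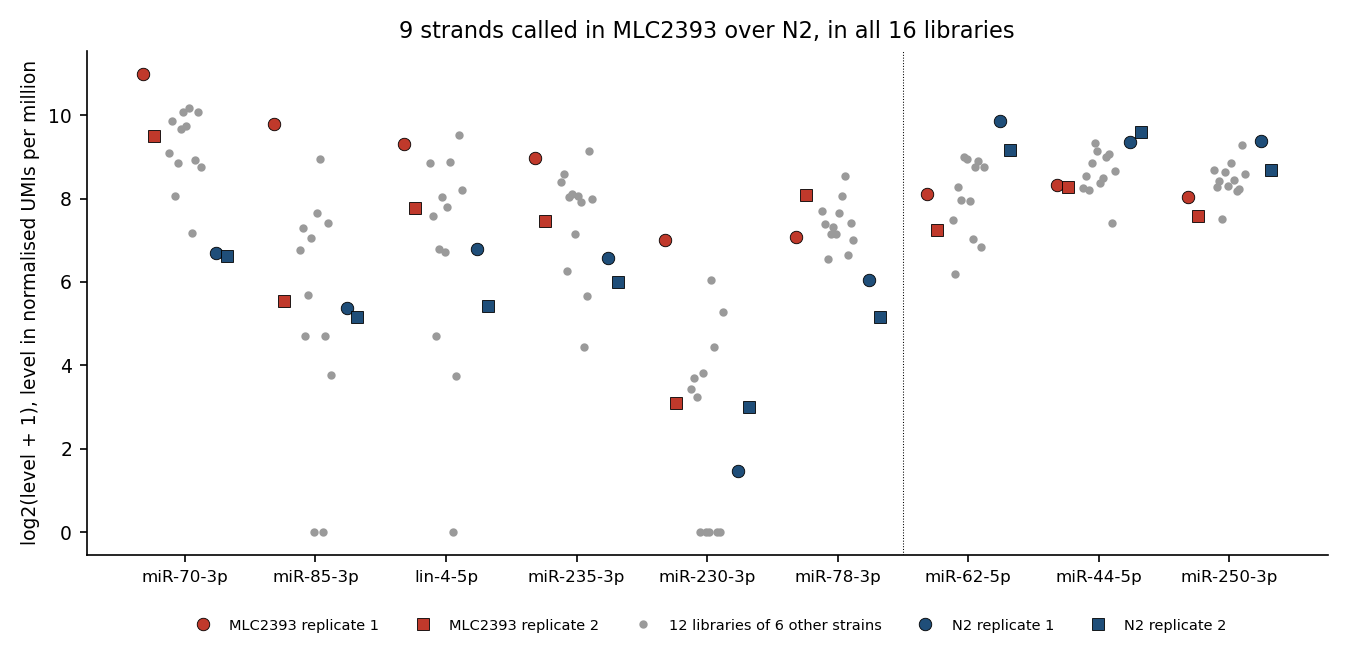
log2(level + 1) of the 6 strands called higher (left of the dotted line) and the 3 called lower in MLC2393 over N2, with the level in CPM: MLC2393 libraries in red, the 12 libraries of 6 other strains in grey, N2 libraries in blue, 1 point a library. Replicate 1 of MLC2393 was well above replicate 2 for miR-85-3p and miR-230-3p, and for miR-70-3p, miR-78-3p, miR-62-5p and miR-44-5p all 12 grey points lay on the same side of both N2 libraries as MLC2393.

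By rank of fold change, called or not, the 5 strands highest in MLC2393 among those with both its libraries above both of N2 were miR-230-3p, miR-70-3p, miR-85-3p, miR-84-5p and lin-4-5p. The 5 lowest were miR-62-5p, miR-250-3p, miR-86-3p, miR-44-5p and miR-1829c-5p. miR-86-3p had 192 and 257 in MLC2393, against 548 and 461 in N2 (log2 fold change -1.18, adjusted p = 0.132), and miR-1829c-5p had 158 and 98.4, against 282 and 244 (log2 fold change -1.02, adjusted p = 0.325). Neither passed the test.

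The 10 strands that differed most between the MLC2393 libraries, as a description, were miR-237-5p, miR-85-3p, miR-230-3p, miR-246-3p, miR-48-5p, miR-786-3p, miR-84-5p, miR-360-5p, miR-240-3p and miR-242-5p. 8 were higher in replicate 1, and miR-360-5p and miR-242-5p were higher in replicate 2. miR-237-5p, a relative of lin-4, had 83.9 and 0 in MLC2393, from 17 and 0 UMIs, against 19.5 and 14.0 in N2. miR-786-3p had 138 and 15.1 in MLC2393, against 26.6 and 20.9 in N2, and miR-246-3p had 128 and 7.57, against 19.5 and 6.98. In these 3 replicate 2 lay near or below the wild-type values. miR-240-3p had 207 and 37.9 in MLC2393, against 26.6 and 55.9 in N2. miR-360-5p had 19.7 and 151 in MLC2393, against 26.6 and 48.9 in N2, and miR-242-5p had 24.7 and 121, against 145 and 41.9. For these 2 the N2 values overlapped those of MLC2393.

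**Figure D4:**
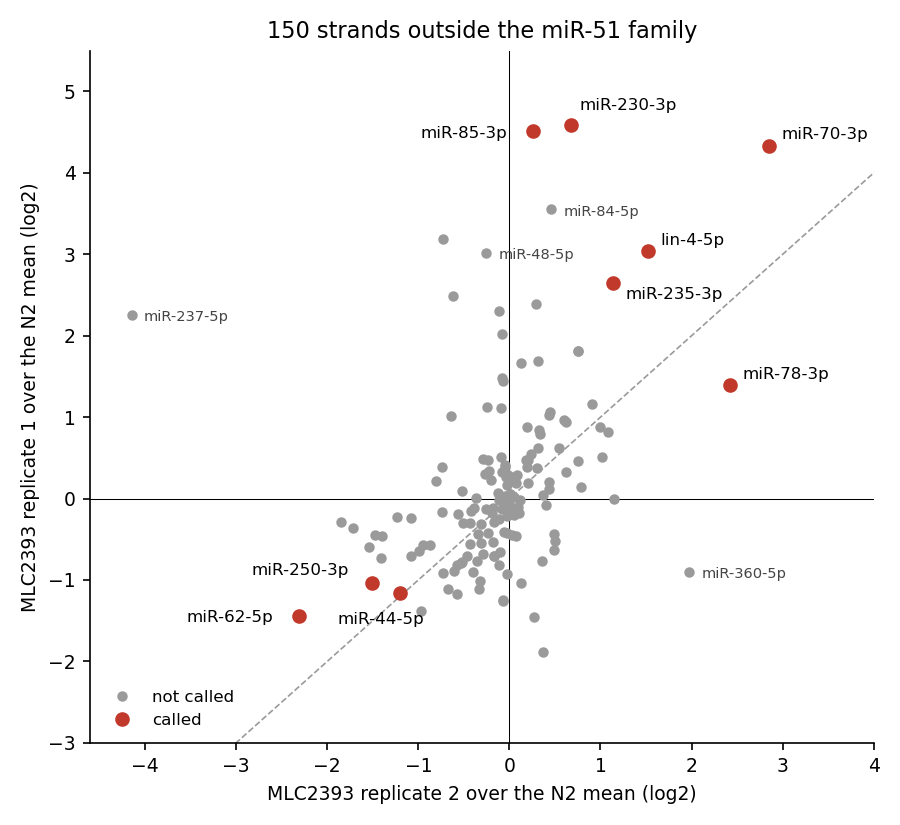
log2 of the level in each MLC2393 library over the mean of the 2 N2 libraries, with 1 CPM added to both, for the 150 tested strands outside the family: replicate 2 on the x axis and replicate 1 on the y axis, with called strands in red and the dashed line marking equal values. Called strands on the dashed line differ from N2 alike in both libraries, whereas miR-85-3p and miR-230-3p lie below 1 for replicate 2 and above 4 for replicate 1.

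The let-7 family joins let-7, which times the passage to adulthood, with miR-241, miR-84 and miR-48, which act together in the early larva. 0 of its 4 tested strands passed the test, and the median log2 fold change was 1.92, beside -0.004 over all 150 strands. miR-48-5p had 2571 and 265 in MLC2393, against 383 and 251 in N2, and miR-84-5p had 331 and 37.9, against 33.7 and 20.9. miR-241-5p had 133 and 30.3 in MLC2393, against 28.4 and 20.9 in N2. let-7-5p had 770 and 333 in MLC2393, against 317 and 391 in N2. In each case replicate 1 alone was well above N2, and without it the median of the 4 strands was 0.08. The adjusted p-values were 0.148 for miR-48-5p, 0.115 for miR-84-5p, 0.279 for miR-241-5p and 0.495 for let-7-5p. With replicate 1 as the only MLC2393 library, the median of the 4 strands was 2.65. Of the lin-4 family, 1 of 2 rose, lin-4-5p, beside 4.0% of all strands, and miR-237-5p did not pass the test.

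miRNAs of stress resistance and lifespan showed the same split. miR-71-5p, which extends lifespan, had 4303 and 1454 in MLC2393, against 1453 and 1627 in N2. miR-239a-5p had 1046 and 401 in MLC2393, against 422 and 223 in N2, and miR-34-5p, of a family with roles in the DNA damage response, had 178 and 60.6, against 54.9 and 55.9. Replicate 2 lay near wild type for all 3. 0 of 3 passed the test (adjusted p-values 0.163 to 0.335), with a median log2 fold change of 1.14, or 0.14 without replicate 1.

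The miR-35 family lay lower without passing the test. All 8 guides had a log2 fold change below 0, between -0.69 for miR-38-3p and -0.08 for miR-39-3p, with a median of -0.36, and 0 of 8 were called. DESeq2 called 1 of the 8 lower, miR-42-3p (adjusted p = 0.0497), which had 31471 and 36769 in MLC2393, against 45956 and 45670 in N2. For 6 of the 8, both MLC2393 libraries were below both N2 libraries, beside 32.0% of all strands. miR-35-3p, the most abundant, had 96604 and 96495 in MLC2393, against 113493 and 126166 in N2 (adjusted p = 0.439). miR-38-3p had 34476 and 40660 in MLC2393, against 61612 and 59815 in N2 (adjusted p = 0.279). miR-36-3p and miR-37-3p had 51507 and 74438, and 47317 and 56167, in MLC2393, against 86875 and 80817, and 80598 and 74324, in N2. miR-41-3p, by contrast, had 16547 and 36254 in MLC2393, against 28933 and 27537 in N2, with replicate 1 the lowest of all 16 libraries. miR-39-3p and miR-40-3p had log2 fold changes of -0.08 and -0.18, and miR-42-3p one of -0.43. Without replicate 1 of MLC2393 the median of the family was -0.23, and 6 of 8 were below 0. With plain totals as library sizes, which moved the median of all strands to 0.18, the median of the family was -0.17.

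Other abundant families had no called strand. The bantam family, which controls body size through the DBL-1 pathway, had 4 tested strands, 0 of them called, and a median log2 fold change of -0.05. Its main member miR-58a-3p had 42693 and 56008 in MLC2393, against 70234 and 66350 in N2 (adjusted p = 0.279), with replicate 1 the lowest of all 16 libraries. miR-80-3p had 24295 and 15969 in MLC2393, against 16276 and 17846 in N2, and miR-81-3p and miR-82-3p had log2 fold changes of -0.07 and -0.03. Of the mir-64 cluster on chromosome III, listed with miR-63 of chromosome X, 0 of 5 were called, and the median was 0.15. miR-64-5p had 22351 and 18028 in MLC2393, against 16887 and 19543 in N2, and miR-229-5p had 12560 and 12652, against 10866 and 11102. miR-63-3p, miR-65-5p and miR-66-5p had log2 fold changes of 0.79, 0.12 and -0.19. Of the miR-31 seed family, miR-72-5p, one of the 10 most abundant strands, had 38419 and 32331 in MLC2393, against 30510 and 33598 in N2 (adjusted p = 0.814). miR-73-3p and miR-74-3p had log2 fold changes of 0.33 and -0.36, and 0 of 3 were called.

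The miR-44 seed family followed replicate 1. miR-44-3p and miR-45-3p, whose UMIs were divided between them because nearly all fit both strands, had 4792 and 10919, and 4822 and 10919, in MLC2393, against 12220 and 10738, and 12225 and 10738, in N2. Replicate 1 was the lowest of all 16 libraries for both, and replicate 2 was within the wild-type range. miR-61-3p, which is induced by Notch signalling in vulval precursor cells, had 1476 and 2173 in MLC2393, against 2412 and 2241 in N2. 0 of 3 were called with both libraries. With replicate 1 as the only MLC2393 library, miR-44-3p had a log2 fold change of -1.26, and without it the value was -0.06. Of the miR-2 seed family, 1 of 4 was called lower, miR-250-3p, beside 2.00% of all 150 strands. miR-2-3p had 23540 and 26017 in MLC2393, against 28655 and 27495 in N2, miR-43-3p had 6919 and 7920, against 9165 and 5697, and miR-797-5p had 69.1 and 45.4, against 31.9 and 34.9.

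Among miRNAs tied to a tissue, 0 were called. miR-1-3p, the muscle miRNA, had 9613 and 15605 in MLC2393, against 19006 and 19906 in N2 (log2 fold change -0.63, adjusted p = 0.406). miR-124-3p, found in sensory neurons, had 2892 and 3907 in MLC2393, against 7359 and 5118 in N2 (log2 fold change -0.88, standard error 0.36, adjusted p = 0.163). lsy-6-3p, which sets the left and right difference of a taste neuron pair, had 49.4 and 37.9 in MLC2393, against 70.9 and 76.8 in N2 (log2 fold change -0.71, adjusted p = 0.512). For all 3, both MLC2393 libraries lay below both N2 libraries, as they did for 32.0% of all strands. miR-79-3p and miR-75-3p, and miR-50-5p, miR-62-3p and miR-90-3p, had log2 fold changes from -0.17 to 0.55, and 0 of these 5 were called.

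**Figure D5:**
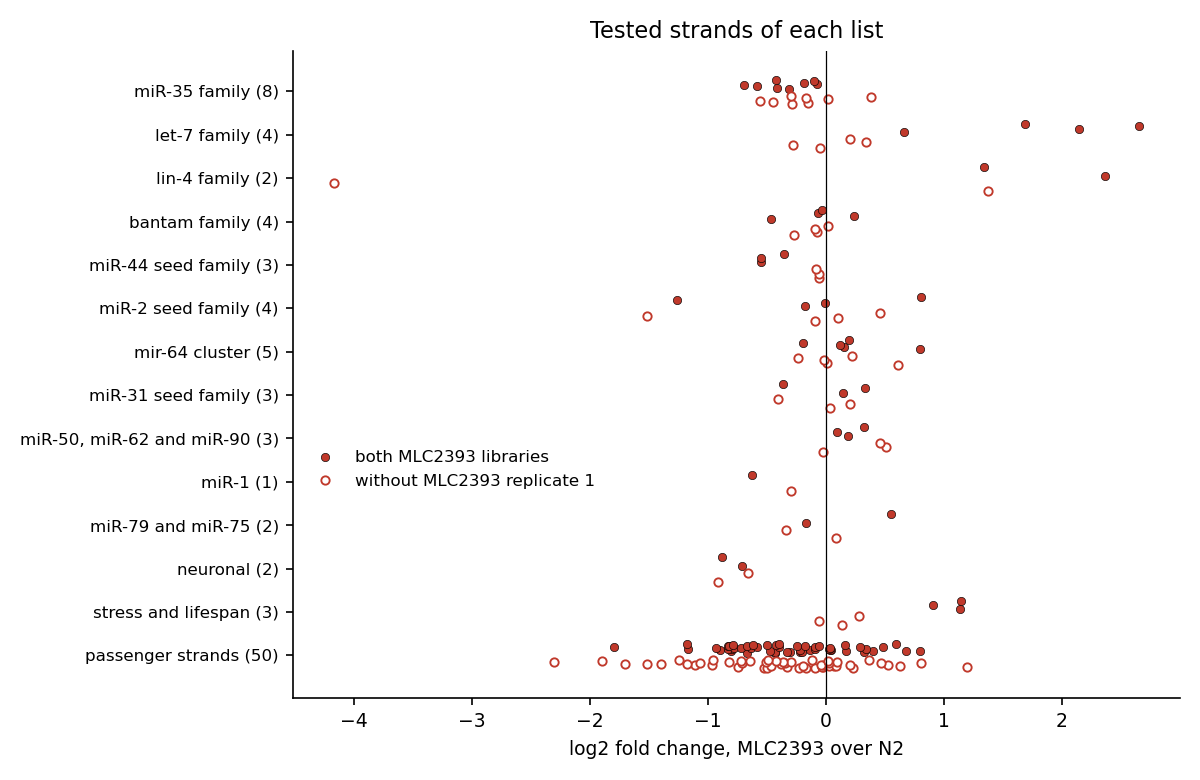
log2 fold change of MLC2393 over N2 for the tested strands of each list (number in parentheses), 1 point a strand, with both MLC2393 libraries (filled) and without replicate 1 (open). The let-7 family and the stress and lifespan strands lay above 0 with both libraries and around 0 without replicate 1, while the passenger strands lay mostly below 0 in both, and the open point near -4 is miR-237-5p, with 0 UMIs in replicate 2.

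Most passenger strands that could be tested had a log2 fold change below 0, though few passed the test. Taking the strand of a hairpin with the lower mean level in N2, 50 of 149 such strands outside the family passed the filter, and 0 rose and 2 fell, miR-62-5p and miR-44-5p, beside 4.0% called higher and 2.00% called lower of all 150 strands. Their median log2 fold change was -0.36, and 36 of 50 were below 0. Both MLC2393 libraries lay below both N2 libraries for 25 of the 50, beside 32.0% of all strands. The filter counts UMIs, so a scarce strand passes it at a lower level in a deeper library. The normalised totals outside the family were 564343 and 143224 in N2, against 202632 and 132070 in MLC2393. The filter can therefore favour scarce strands that are higher in N2. How far it lowered the median and raised these counts was not tested. Of the guide strands of the 149 hairpins, 92 passed the filter, with a median of 0.08 and 40 below 0. They were filtered on their own and include hairpins whose passenger strand was not tested. Without replicate 1 of MLC2393 the median of the passenger strands was -0.34 and that of the guides -0.01. With plain totals as library sizes the passenger median was -0.17. Summed over all 149, passenger strands had 17039 and 17596 in MLC2393, against 20856 and 20730 in N2, with the other 12 libraries between 12658 and 20486. N2 replicate 1 is the deepest library, and the part that depth had in this was not tested.

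Against the other 2 strains of the deletion series, no strand outside the family was called. Fewer family strands differ by genotype in these 2 comparisons, so the adjusted threshold was stricter than over N2. Over N2, 21 strands had an unadjusted p under 0.05 in edgeR's test. Replicate 2 of MLC2394 held only 33699 UMIs on miRNAs. The lack of calls therefore does not show that MLC2393 is like these 2 strains. Of 150 strands, 0 were called in MLC2393 over MLC2394 (0.00% in each direction) by edgeR's test, with 12 at an unadjusted p under 0.05 and 0 called by DESeq2. In MLC2393 over MLC2290, 0 were called (0.00% in each direction), with 9 at an unadjusted p under 0.05 and 1 called by DESeq2. Without replicate 2 of MLC2393, 2 and 6 were called. The median log2 fold changes of the 150 strands were 0.18 and 0.02. The family strands that the genotypes set apart passed the test: in MLC2393, miR-55-3p had 242 and 227, against 50095 and 47252 in MLC2394, and miR-56-3p had 212 and 250, against 48410 and 52635 in MLC2290. miR-70-3p, at 2043 and 727 in MLC2393, had 816 and 1087 in MLC2394 (adjusted p = 0.739) and 269 and 462 in MLC2290 (adjusted p = 0.09). lin-4-5p, at 632 and 220 in MLC2393, had 263 and 105 in MLC2394 and 25.2 and 110 in MLC2290 (adjusted p = 0.661 and 0.09). The passenger strands had a median log2 fold change of 0.01 over MLC2394 and -0.05 over MLC2290, and the miR-35 family medians were -0.41 and -0.001.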

How the data were processed

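Small RNAs of 50 embryos per library were counted by the authors' barcode-aware pipeline. The authors deposited, per library, estimated counts of reads and of UMIs per miRNA strand, divided among strands that a read fits, and a count of UMIs in full, all without normalization. Per the labels the build is WBcel235, and the aligner and miRNA annotation are not given in the sources used here. Unlisted strands were taken as 0. The lists hold 366 strands, and they hold no spike-ins.

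Divided UMIs were rounded, and edgeR 4.0.16 (R 4.3.3) was run with a coefficient for each of the 8 strains, all 16 libraries, library sizes from strands outside the miR-51 family with TMM factors, and at least 10 UMIs in at least 2 libraries (162 strands, 150 outside the family). The common dispersion was a coefficient of variation of 25.5%, and each standard error is the size of the log2 fold change over the root of F. Shares were compared by exact permutation of log2 values. In 20 simulated draws of MLC2393 over N2, 24 of 162 strands were changed. Of these, 30.6% of 2-fold, 71.9% of 4-fold and 91.3% of 8-fold changes were recovered, with 1.05 false calls on average. The draws gave every strain the same dispersion, lowered no family strand and let strands vary independently between replicates. The data differ in these points, so the rates need not hold for the calls reported here. Intervals cover counting error only.

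The text names each strand of the miR-51 family and of mir-57, all called strands, the 10 most abundant in N2, the 10 whose MLC2393 libraries differ most (1 CPM added), the 5 highest and 5 lowest that separate the strains, and members of lists by seed, cluster or tissue. Members and lists were chosen with earlier results of these data known. Alternatives were median-of-ratios factors, plain totals of the other miRNAs, TMM over all strands, no filter, at least 50 UMIs, DESeq2 1.42.0, the 2 strains alone, the replicate number as a block, reads, UMIs in full, a correction for molecules that share a UMI (reads over the library's reads per UMI among strands with 10 to 1000 UMIs), and each library left out. Leaving out the MLC2394 and MLC2290 libraries was added after seeing the data. Tables were made in Python 3.11.15 (pandas 2.3.3, numpy 2.4.6, scipy 1.17.1).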

Additional observations from a re-analysis of the deposited data

How the results depend on the processing

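The share of the miR-51 family relative to N2 was 20.4%, and 18.4% to 22.3% when libraries were left out singly. The 6 strands called higher than N2 became 10 without a filter, 1 with reads in place of UMIs and 1 with the 2 strains alone, and ranged from 1 to 11 with each library left out. The 3 called lower became 1 with plain totals of the other miRNAs, 1 without a filter and 0 with the 2 strains alone, and ranged from 0 to 2 with each library left out. The 0 called over MLC2394 became 2 without a filter and ranged from 0 to 2 with a library left out. The 0 called over MLC2290 became 7 without a filter and 1 in DESeq2, and ranged from 0 to 6. For miR-54-3p the log2 fold change of 0.66 passed the threshold at 0.74 with median-of-ratios factors (adjusted p = 0.031), 0.86 with plain totals of the other miRNAs (0.0202), 0.66 with at least 50 UMIs (0.0405) and 0.66 in DESeq2 (0.0357), and ranged from 0.58 to 0.76 with each library left out. The causes were not tested. The other filters changed the set of strands that was fitted and adjusted over. Plain totals of the other miRNAs moved the median of all strands to 0.18, reads to -0.12 and the correction for shared UMIs to -0.13. With the replicate number as a block, 6 and 3 strands were called, and miR-54-3p was at 0.65 (adjusted p = 0.0463). The labels give no pairing by number, and over 54 strands the difference between replicates 1 and 2 of MLC2393 had a correlation of -0.19 with that of N2, -0.19 with MLC2290, 0.22 with MLC2394 and from -0.30 to 0.55 with the other 4 strains. Of the 9 called strands, 1 was kept with the 2 strains alone and 4 with reads. In the simulated data most 2-fold changes were missed.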

Other observations

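5 guide strands of the lists had too few UMIs to be tested. miR-795-5p, of the let-7 family, had 14.8 and 15.1 CPM in MLC2393, against 1.77 and 6.98 in N2, which in UMIs is 3 and 2, against 1 and 1. miR-793-3p of the same family had 19.7 and 0 in MLC2393, against 1.77 and 6.98 in N2. miR-239b-5p, a stress miRNA, had 49.4 and 7.57 in MLC2393, against 5.32 and 6.98 in N2, the same split between replicates as its relative miR-239a-5p. miR-247-3p, which shares the miR-44 seed, had 0 UMIs in both MLC2393 libraries, against 10.6 and 27.9 CPM in N2, and miR-58b-3p had 0 and 0, against 5.32 and 0.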
